A study of Mus musculus with 2 samples.

Results

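The genes examined here are the 8 mouse Dlg and Dlgap genes, which encode scaffold proteins of the postsynaptic density: Dlg1, Dlg2, Dlg3, Dlg4, Dlgap1, Dlgap2, Dlgap3 and Dlgap4. They were chosen by symbol, with earlier results of these data known, and all 8 were found among the 33696 genes counted. The data are 2 droplet libraries (10x Genomics 3′ chemistry, in which each captured transcript carries a unique molecular identifier, UMI) from Shank3-/- mice, animals labelled as lacking the synaptic scaffold Shank3. One library came from mice on vehicle (labelled MOCK) and the other from mice that drank fluconazole, an azole antifungal, for 2 weeks. Both groups carry the Shank3-/- genotype, and no wild-type library was analysed here. The ages and the number of mice per library are not given in the sources used here. The sample labels call the tissue brain, whereas the design text names the prefrontal cortex. Nuclei alone are described in 1 place and cells with nuclei in another, so droplets are called barcodes below. With a single library per treatment the treatments cannot be tested against each other, and every interval below is a 95% interval for counting error alone.

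Dlg proteins are membrane-associated guanylate kinases: their PDZ domains hold the tails of NMDA receptors, neuroligins and the auxiliary subunits of AMPA receptors at the synapse. Dlg4 encodes the main scaffold of that kind in mature excitatory synapses, and Dlg1, Dlg2 and Dlg3 encode its close relatives. The guanylate kinase domain of the Dlg proteins binds the Dlgap proteins (also called SAPAP or GKAP), which in turn bind the PDZ domain of Shank proteins, so Dlgap proteins join the receptor layer of the postsynaptic density to the Shank and Homer layer beneath it. In mice, loss of Dlgap3 is known for compulsive grooming that arises in corticostriatal circuits.

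On the mm10 genome, in the GENCODE M21 annotation, the members range from Dlg4 (chromosome 11, 70016942 to 70047522, 30.6 kb) to Dlg2 (chromosome 7, 90476672 to 92449247, 1973 kb). Dlgap1 (chromosome 17, 69969073 to 70821413) and Dlgap2 (chromosome 8, 14095865 to 14847680) are also long, at 852 and 752 kb. Dlgap3 spans 67.8 kb (chromosome 4, 127169204 to 127237022) and Dlgap4 151 kb (chromosome 2, 156613705 to 156764363). Whether reads within introns were counted is not given in the sources used here, so levels are compared between cell classes and libraries for 1 gene at a time, never between genes.

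Dlgap3 was found mainly in neurons and Dlgap4 in most classes, as described below, and the sequences before a start site of each are shown for that reason. RefSeq (GRCm38.p6) lists 1 start for each in the table used, and both starts lie within the gene as GENCODE M21 draws it, so neither need be the start used in these cells. Each window is the 250 bases before that start on the plus strand, chr4:127172630-127172879 for Dlgap3 and chr2:156720715-156720964 for Dlgap4, and capitals mark each CG, which reads the same on both strands.
Dlgap3: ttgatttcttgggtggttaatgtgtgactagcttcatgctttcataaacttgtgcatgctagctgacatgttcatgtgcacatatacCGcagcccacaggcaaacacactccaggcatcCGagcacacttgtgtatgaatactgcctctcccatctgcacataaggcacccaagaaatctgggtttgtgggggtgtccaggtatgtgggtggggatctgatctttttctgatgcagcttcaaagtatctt
Dlgap4: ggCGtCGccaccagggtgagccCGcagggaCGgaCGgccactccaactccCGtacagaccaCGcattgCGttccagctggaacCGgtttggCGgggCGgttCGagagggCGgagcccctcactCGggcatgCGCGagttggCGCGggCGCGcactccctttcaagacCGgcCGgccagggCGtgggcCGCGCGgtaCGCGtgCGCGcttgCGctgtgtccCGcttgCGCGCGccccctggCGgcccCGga
The Dlgap3 window holds 2 CG, a number that 81.2% of all 32851 windows of this length reach or exceed. The Dlgap4 window holds 37, which 2.20% of windows reach or exceed. Windows of other members held 3 to 20 CG for Dlg1, 1 to 3 for Dlg2, 7 and 19 for Dlg3, 4 to 14 for Dlg4, and 7 and 9 for Dlgap1. These are descriptions of the reference sequence, and nothing was measured at these sites here. A link between the number of CG and the classes that hold a gene was not tested.

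After filtering, 12892 vehicle and 10610 fluconazole barcodes remained, with 67877915 and 68918276 UMIs and medians of 4327 and 5258 UMIs per barcode. The deposited barcode lists shared 45 barcodes. Clusters were named from marker genes with the 8 members left out of the clustering genes, and 13 marker-defined classes had at least 50 barcodes in each library. These are classes by resemblance (glutamatergic neuron-like and so on), written below without the suffix. Glutamatergic neurons comprised 2070 vehicle and 1729 fluconazole barcodes, with medians of 7484 and 10467 UMIs. GABAergic interneurons comprised 494 and 380 barcodes, and striatal spiny neurons, a class found outside the prefrontal cortex, 316 and 201. The label Shank3-/- could not be checked: Shank3 stood at 70.8 (vehicle) and 79.0 (fluconazole) counts per 1000000 UMIs of the class (CPM) in glutamatergic neurons, and the deleted part of the gene and the position of these 3′ tags in it were not analysed here.

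Among the Dlg genes, Dlg2 was the most strongly neuronal. Of all its UMIs, 90.5% lay in the 3 classes of mature neurons. Here and below the vehicle value comes first and the fluconazole value second. Dlg2 stood at 7153 and 6661 CPM in striatal spiny neurons, 6553 and 6755 CPM in glutamatergic neurons, and 5831 and 5697 CPM in GABAergic interneurons. The first and second of these overlapped between libraries, and the third lay below both. Oligodendrocyte precursors, glial cells that receive synapses from neurons, came next at 2957 and 2136 CPM. Oligodendrocytes held 938 and 935 CPM, and microglia and endothelial cells between 69.8 and 98.6 CPM. Fibroblasts reached 991 and 1084 CPM, but 1 barcode gave 22.5% of the vehicle and 1 gave 17.1% of the fluconazole UMIs.

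Dlg1, whose protein is found in epithelial and glial cells as well as at synapses, was spread much more widely, with 55.8% of its UMIs in the mature neuronal classes. Glutamatergic neurons led at 471 and 441 CPM. Oligodendrocytes followed at 420.3 and 418 CPM, fibroblasts at 394 and 369.8, and striatal spiny neurons at 349.7 and 329. The library ranges of these 4 classes did not overlap. GABAergic interneurons, at 220.2 and 183 CPM, lay below all 4 and overlapped with astrocytes (216 and 228 CPM). The lowest were border macrophages, endothelial cells and microglia, between 113 and 126 CPM.

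Dlg4 and Dlg3 gave far fewer UMIs and a different order. Dlg4 was highest in striatal spiny neurons (86.6 and 97.0 CPM), then in glutamatergic neurons (64.5 and 80.2 CPM), whose ranges did not overlap. Astrocytes held 56.0 and 67.7 CPM of Dlg4, which overlapped with glutamatergic neurons, while endothelial cells held 3.59 and 3.14 CPM and oligodendrocytes 5.22 and 7.85 CPM. Dlg3, an X-linked gene, did not separate the neuronal classes: striatal spiny neurons (39.5 and 38.8 CPM), GABAergic interneurons (31.8 and 40.5), glutamatergic neurons (32.0 and 33.2), neuroblasts (33.1 and 30.02) and astrocytes (28.2 and 33.9) each overlapped with the class next to them. Oligodendrocytes (5.87 and 5.16 CPM) and endothelial cells (3.59 and 4.13 CPM) were again near the bottom. Oligodendrocytes thus ranked 2 of 13 classes for Dlg1, against 10 for Dlg3 and 12 for Dlg4.

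The Dlgap genes fell into 3 patterns. Dlgap1 and Dlgap2 were both highest in GABAergic interneurons, at 3429 and 3604 CPM for Dlgap1 and 1869 and 1922 CPM for Dlgap2. Glutamatergic neurons came second for both (2472 and 2411 CPM, and 1654 and 1743 CPM). The pair differed in the remaining classes. Dlgap2 was next highest in striatal spiny neurons at 1434 and 1503 CPM, and outside the mature neuronal classes no class exceeded 429 CPM. Summed over all barcodes, Dlgap1 stood at only 968 and 734 CPM in striatal spiny neurons, below oligodendrocyte precursors (1838 and 1544 CPM). That was in the range of astrocytes (783 and 784 CPM) and neuroblasts (722 and 775 CPM). The striatal level rose with depth: 591 and 446 CPM below 5000 UMIs per barcode, and 743 and 487 CPM from 5000 to 10000. It was 1171 and 507 CPM from 10000 to 20000 UMIs, and 1759 and 1625 CPM in the 8 and 13 deeper barcodes. In the fluconazole library, each striatal bin below 20000 UMIs thus lay below the summed astrocyte level.

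Dlgap3 was the member with the sharpest neuronal bias among those of low count. Striatal spiny neurons led at 165 and 243 CPM, glutamatergic neurons followed at 118 and 162 CPM, and GABAergic interneurons at 87.1 and 89.0 CPM, with no overlap between neighbours. Oligodendrocyte precursors held 41.3 and 20.0 CPM. Microglia, endothelial cells, oligodendrocytes and astrocytes all lay between 1.74 and 4.87 CPM. Border macrophages gave 0 UMIs in the vehicle library, which allows up to 4.03 CPM at 3 counts, and 1 UMI in the fluconazole library. In all, 91.6% of Dlgap3 UMIs came from the mature neuronal classes.

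Dlgap4 showed a broader distribution, with 49.0% of its UMIs in those classes. Neuroblasts, immature neurons, held 191 and 169 CPM, the highest level in the vehicle library and in the mean of both. Glutamatergic neurons (140.3 and 170.4 CPM) were level with them in the fluconazole library, and the ranges of both classes overlapped. Oligodendrocyte precursors (153 and 168 CPM) and striatal spiny neurons (137 and 162) overlapped with glutamatergic neurons. Striatal spiny neurons lay below neuroblasts. Precursors did so in the vehicle library, but were level with neuroblasts in the fluconazole library (168.5 against 169.1 CPM, on 135 and 276 UMIs). Microglia held 104 (99.1 to 109) and 114 (109 to 119.6) CPM, which overlapped with GABAergic interneurons (99.4 and 112 CPM), and endothelial cells 62.5 and 57.9 CPM. Oligodendrocytes were lowest at 17.6 (14.0 to 21.9) and 19.9 (16.0 to 24.5) CPM. The gap between microglia and oligodendrocytes was larger than counting error in both libraries.

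**Figure D1:**
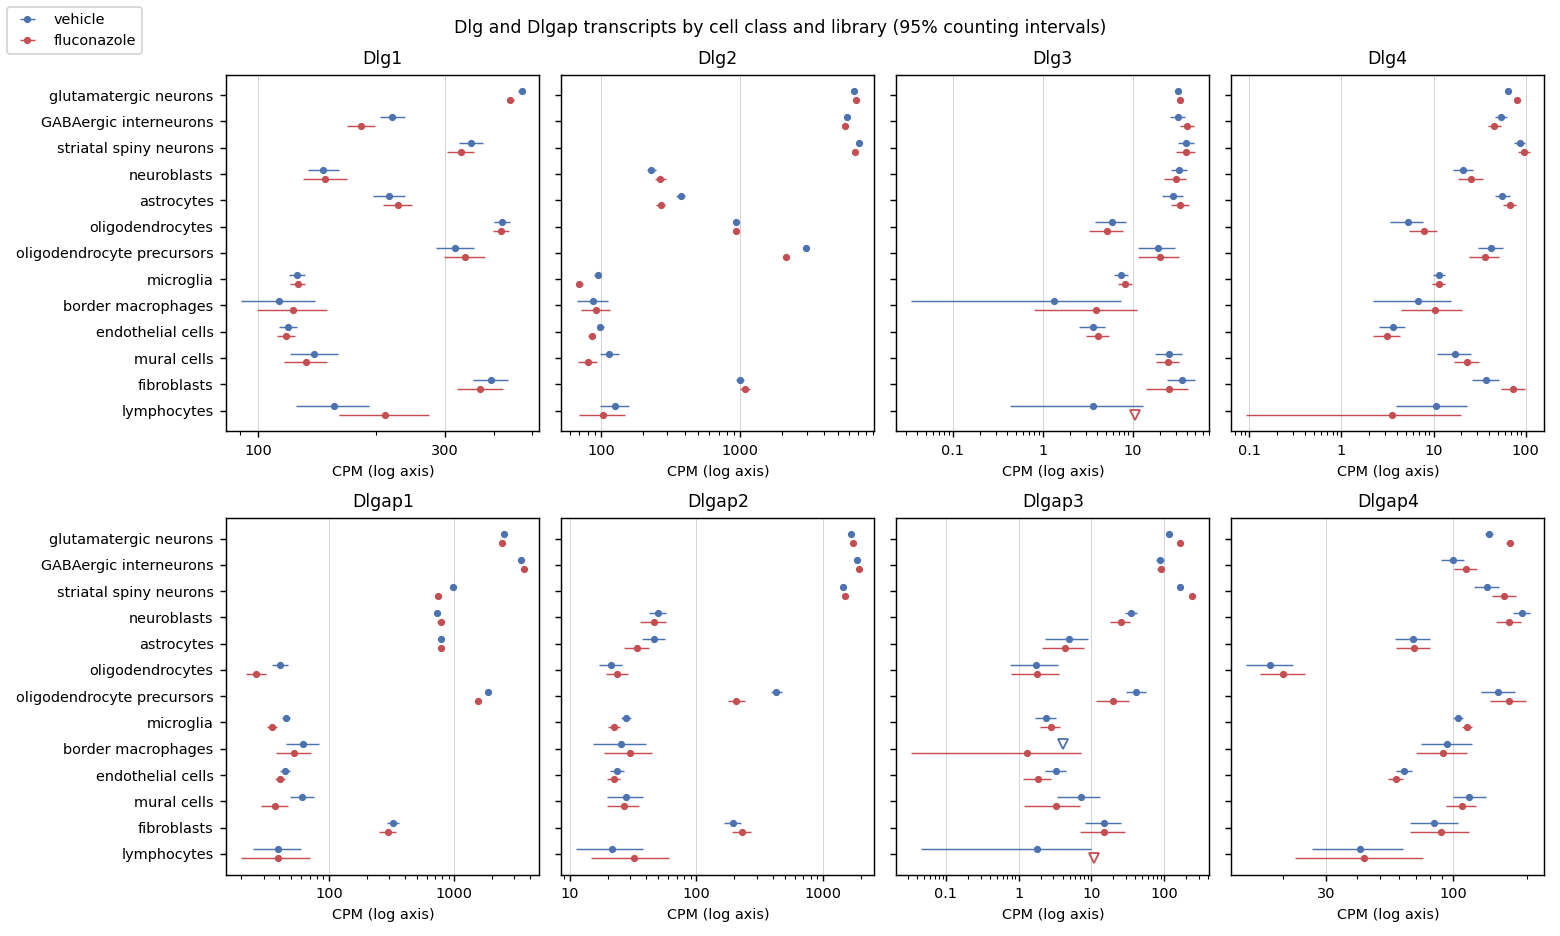
Level of each member (CPM, log axis) in 13 marker-defined classes, 1 point per library with its exact Poisson 95% interval; open triangles mark classes with 0 UMIs, drawn at the value of 3 counts. Dlgap3 falls from 165 and 243 CPM in striatal spiny neurons to under 5 CPM in microglia, endothelial cells, oligodendrocytes and astrocytes, whereas Dlgap4 stays above 50 CPM in 11 of the 13 classes.

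The share of barcodes with at least 1 UMI depends on depth, so it was also computed after thinning each barcode to 1500 UMIs, which left out 73 glutamatergic barcodes in each library. At that depth Dlg2 was found in 99.7% of the glutamatergic barcodes on vehicle and 99.4% of those on fluconazole, Dlgap1 in 94.2% and 92.8%, and Dlgap2 in 87.9% and 89.2%. Dlg1 was found in 49.6% and 46.7%, Dlgap4 in 18.9% and 23.1%, Dlgap3 in 15.8% and 18.9%, Dlg4 in 8.96% and 11.9%, and Dlg3 in 4.86% and 4.65%. Microglia, which have no postsynaptic density, had medians of 4594 and 5997 UMIs and served as a class for comparison. At 1500 UMIs their shares were 12.9% and 11.0% for Dlg2, 6.01% and 4.87% for Dlgap1, 4.31% and 3.56% for Dlgap2, and 0.675% and 0.423% for Dlgap3. For Dlg1 (15.6% and 16.1%) and Dlgap4 (13.9% and 16.6%) the microglial share was much nearer to the neuronal one. Without thinning, glutamatergic shares were higher: 38.5% and 54.0% for Dlg4, 56.4% and 70.7% for Dlgap3, and 61.2% and 75.3% for Dlgap4. Those raw shares also carry the difference in depth between the libraries.

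Across the 26 profiles of class and library, the members resembled one another to different degrees. Pearson correlations of log2(CPM + 1) are given as a description, since profiles share libraries and depth. Dlg2 and Dlgap2 were the most alike pair (0.92), followed by Dlgap2 and Dlgap3 (0.91). Dlg3 and Dlg4 followed one another at 0.88. Dlg1 and Dlgap4 were the least alike pair at -0.08. Among 11024 other genes, the closest to Dlgap2 were Syt1 (0.99), a synaptic vesicle calcium sensor, Snhg11 (0.99) and Cntn5 (0.99), a neuronal adhesion protein. The closest to Dlg2 were Tmem132b (0.98), Arfgef3 (0.97) and Cacnb4 (0.97), a calcium channel subunit, and those to Dlgap1 were Kcnj3 (0.97), a potassium channel subunit, Bmerb1 (0.97) and the AMPA receptor subunit gene Gria2 (0.96). Dlgap3 was closest to Celf5 (0.98), an RNA-binding protein gene, Clvs1 (0.97) and Zfp385b (0.97). Dlg3 was closest to Klhl22 (0.94), Cdh4 (0.93) and Zc3h12b (0.92), and Dlg4 to Prelid3a, Mir670hg and Rhbdl3 (each 0.92). The best matches were weaker for the widely detected members: Tecpr2 (0.91), Ptprd (0.89) and Prkcz (0.88) for Dlg1, and Trio (0.89), Cstf3 (0.88) and Spats2 (0.85) for Dlgap4.

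The comparison of the fluconazole with the vehicle library asks how these scaffold transcripts stand in mice that all carry the Shank3-/- genotype. In glutamatergic neurons the abundant members were nearly level between libraries and 3 of the low-count members were higher in the fluconazole library. Dlgap3 differed most, at 118 (113 to 123) and 162 (157 to 168) CPM, and its log2 ratio of fluconazole over vehicle was 0.46 (0.38 to 0.54). Dlg4 stood at 64.5 (60.8 to 68.3) and 80.2 (76.4 to 84.2) CPM, a log2 ratio of 0.32 (0.21 to 0.42). Dlgap4 stood at 140.3 (135 to 146) and 170.4 (165 to 176) CPM, a log2 ratio of 0.28 (0.21 to 0.35). For each of these 3 genes the intervals of the libraries did not overlap.

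The other 5 members lay within 0.10 of equality on the log2 scale. Dlgap2 had a ratio of 0.08 (0.05 to 0.10), Dlg2 0.04 (0.03 to 0.06), Dlg3 0.05 (-0.11 to 0.22), Dlgap1 -0.04 (-0.05 to -0.02) and Dlg1 -0.10 (-0.14 to -0.05). In all, 6 of the 8 members were higher in the fluconazole library, against 43.1% of the 13928 genes with at least 100 UMIs in the class. The median log2 ratio was 0.06 over the members and -0.03 over those genes. A difference is called here when the fluconazole level is at least 25% above the vehicle level, or at least 20% below it, which is the same fold. Dlgap3 alone passed this size, upward, whereas 6.05% of all tested genes passed it upward, 12% downward and 18% in either direction. Dlg4 fell just short at 1.24-fold. A count of 1 in 8 is too small to set apart from that background.

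**Figure D2:**
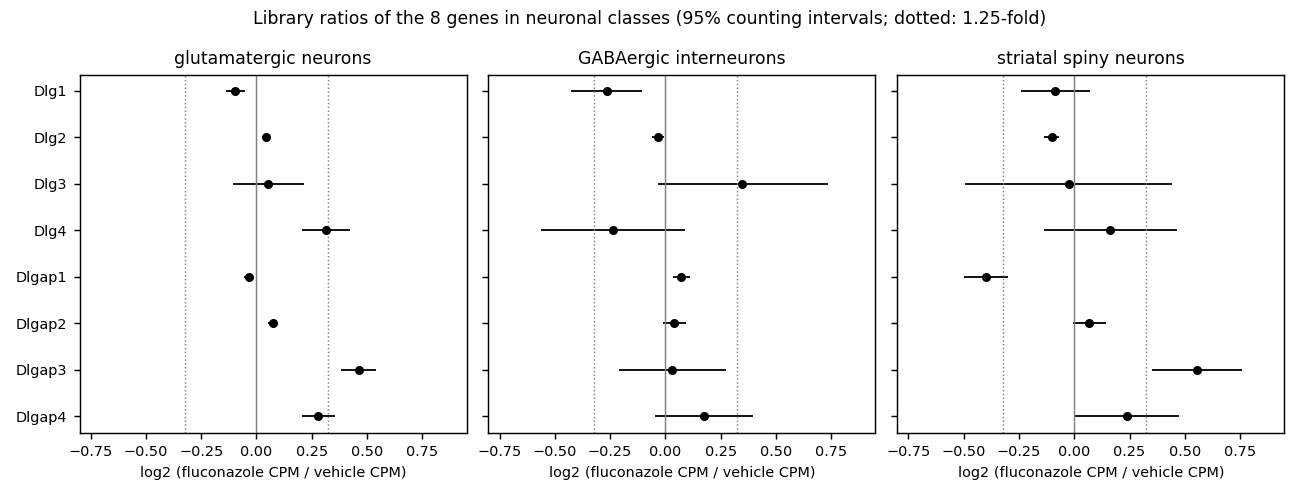
Log2 ratio of fluconazole over vehicle CPM for each member in 3 neuronal classes, with exact 95% counting intervals; dotted lines mark the size of a called difference in either direction. Dlgap3 lies beyond the upper line in glutamatergic and striatal spiny neurons and near 0 in GABAergic interneurons, and Dlgap1 lies beyond the lower line in striatal spiny neurons.

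Other measures differed between the libraries in the same glutamatergic barcodes. Ribosomal protein transcripts were lower in the fluconazole library for 79 of 79 genes tested (summed 5527 and 4187 CPM), and 7 of 8 nuclear-retained RNAs were higher (Malat1, 41225 and 46818 CPM). Of the 10 microglial markers 10 were lower, from a summed 796 to 633 CPM, and of the 5 red blood cell markers 5 were higher, from 228 to 426 CPM. Neuroblast markers were lower for 8 of 8 (summed 230 and 173 CPM), endothelial markers for 8 of 10 (529 and 456 CPM) and oligodendrocyte markers for 7 of 9 (356 and 279 CPM), whereas astrocyte markers summed to more (346 and 452 CPM), with 5 of 9 lower. Their part in the ratios of Dlgap3, Dlg4 and Dlgap4 was not tested. An estimate of free RNA from the microglial genes C1qa, C1qb and C1qc gave 11.96% (vehicle) and 10.4% (fluconazole) of glutamatergic UMIs, and with that amount subtracted the Dlgap3 ratio was 0.45. In 5 subclusters, holding 10.0% and 10.5% of the class, at least 50% of the markers of oligodendrocytes, microglia, endothelial cells, fibroblasts or mural cells were raised. Without them the Dlgap3 ratio was 0.43.

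Depth also differed between libraries, and the 3 ratios were computed within bins of UMIs per barcode. In all 4 bins the level of each of the 3 genes was higher in the fluconazole library, with intervals of the ratio above 0. The Dlgap3 ratio was 0.49 (0.13 to 0.85) below 5000 UMIs, 0.29 (0.14 to 0.44) from 5000 to 10000, 0.51 (0.39 to 0.63) from 10000 to 20000, and 0.58 (0.39 to 0.78) from 20000 UMIs upward. Dlg4 ranged from 0.24 (0.07 to 0.41) to 0.49 (0.05 to 0.92), and Dlgap4 from 0.26 (0.12 to 0.40) to 0.52 (0.22 to 0.81). Thinned to 1500 UMIs, so that each barcode had the same weight, Dlgap3 stood at 117 and 141 CPM, a ratio of 0.27 (0.05 to 0.49) below the size of a call, whereas Dlg4 (0.43, 0.14 to 0.72) and Dlgap4 (0.32, 0.13 to 0.52) then reached it.

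**Figure D3:**
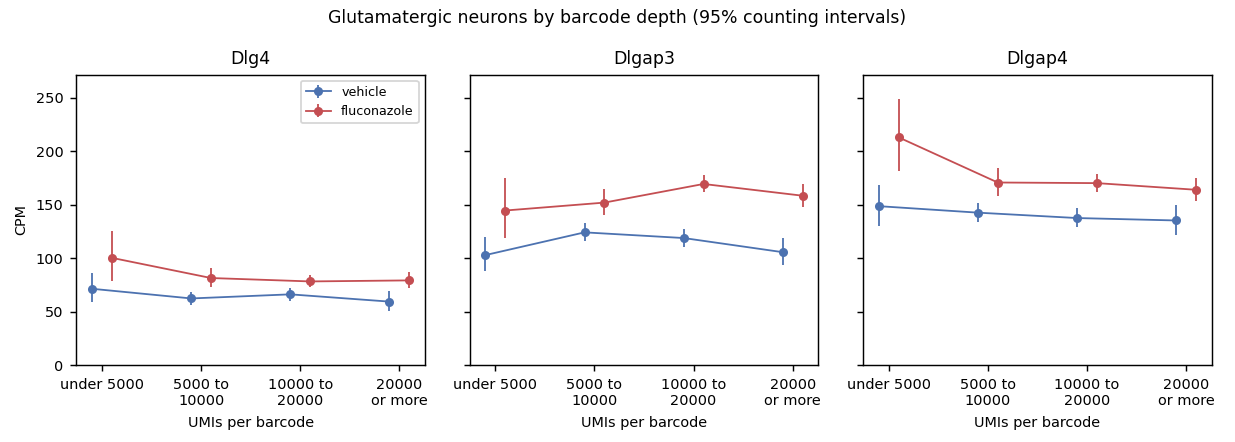
Level (CPM) of Dlg4, Dlgap3 and Dlgap4 in glutamatergic neurons, split by UMIs per barcode, with exact Poisson 95% intervals for each library. Fluconazole points lie above vehicle points in each of the 4 bins, and vehicle levels of Dlgap3 run from 103 to 124 CPM while fluconazole levels run from 145 to 169.6 CPM.

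A second clustering of the neurons gave 5 glutamatergic subclasses with enough barcodes that could be named from cortical layer markers (by resemblance, as above). The summed Dlgap3 level was higher in the fluconazole library in each, and the size varied. Layer 2/3 intratelencephalic neurons, which project within the telencephalon, held 141 and 209.9 CPM, a log2 ratio of 0.58 (0.44 to 0.72). Layer 4/5 intratelencephalic neurons held 132 and 176 CPM (0.41, 0.12 to 0.71), and layer 6 intratelencephalic neurons 136 and 183 CPM (0.43, 0.17 to 0.70). In the subclasses that project out of the telencephalon the interval of the ratio included 0: 89.0 and 109 CPM in layer 5 extratelencephalic neurons (0.29, -0.04 to 0.62) and 115 and 127 CPM in layer 6 corticothalamic neurons (0.15, -0.11 to 0.42). Whether the projection classes differ from each other was not tested, and all but the layer 6 corticothalamic interval overlap with that of layer 2/3 neurons. Thinned to 1500 UMIs, the share of barcodes with Dlgap3 was higher in the fluconazole library in layer 2/3 (18.5% and 26.0%) and layer 4/5 (14.1% and 20.9%). It was nearly level in layer 6 intratelencephalic neurons (20.6% and 20.8%) and lower in layer 5 extratelencephalic (15.2% and 13.5%) and layer 6 corticothalamic neurons (17.4% and 12.2%). The intervals of these shares overlapped between libraries in all 5 subclasses, narrowly in layer 2/3 (15.4 to 22.1% and 22.01 to 30.3%).

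Dlg4 gave another order. Its largest ratio was in layer 5 extratelencephalic neurons, with 68.1 and 108 CPM (0.67, 0.31 to 1.02). Layer 6 corticothalamic neurons held 71.4 and 95.4 CPM (0.42, 0.09 to 0.75) and layer 6 intratelencephalic neurons 56.5 and 75.7 CPM (0.42, 0.01 to 0.84). In layer 2/3 the values were 73.4 and 82.1 CPM (0.16, -0.04 to 0.37) and in layer 4/5 they were 50.1 and 55.8 CPM (0.16, -0.33 to 0.66). In layer 4/5 the thinned share of barcodes with Dlg4 went the other way (9.40% and 7.59%). Dlgap4 was also higher in the fluconazole library in all 5 subclasses, most in layer 5 extratelencephalic neurons (141 and 204 CPM; 0.53, 0.28 to 0.78) and least in layer 6 corticothalamic neurons (192 and 209 CPM; 0.12, -0.08 to 0.33). Dlg1 was lower in all 5, by 0.06 to 0.30 on the log2 scale, with 456 and 369.6 CPM in layer 5 extratelencephalic neurons (-0.30, -0.46 to -0.14). Members called higher numbered 1 of 8 in layer 2/3 and 1 of 8 in layer 6 corticothalamic neurons, where 8.64% and 10.7% of all genes were called higher. They numbered 2 of 7 in layer 4/5, 2 of 7 in layer 5 and 3 of 8 in layer 6 intratelencephalic neurons, where 11.8%, 11.4% and 13% of genes were called higher. No member was called lower in these 5 subclasses. Unnamed glutamatergic subclusters are not in these counts. In 1 of them, of shallow barcodes (median 1234 UMIs), Dlg2 (-0.54), Dlgap1 (-0.33) and Dlgap2 (-0.65) were lower. No other member had enough UMIs to be tested there. The median ratio of its 354 tested genes was -0.08, and 42.9% of them were higher. Dlgap4, on only 9 and 47 UMIs, stood at 82.6 and 310 CPM there (1.91, 0.86 to 3.12). In the other unnamed glutamatergic subclusters with enough barcodes, the median ratio over tested members was 0.10, 0.11 and 0.09. Over all tested genes it was 0.0021, 0.0086 and 0.0068. The shares of all genes called in these unnamed subclusters are not given here.

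**Figure D4:**
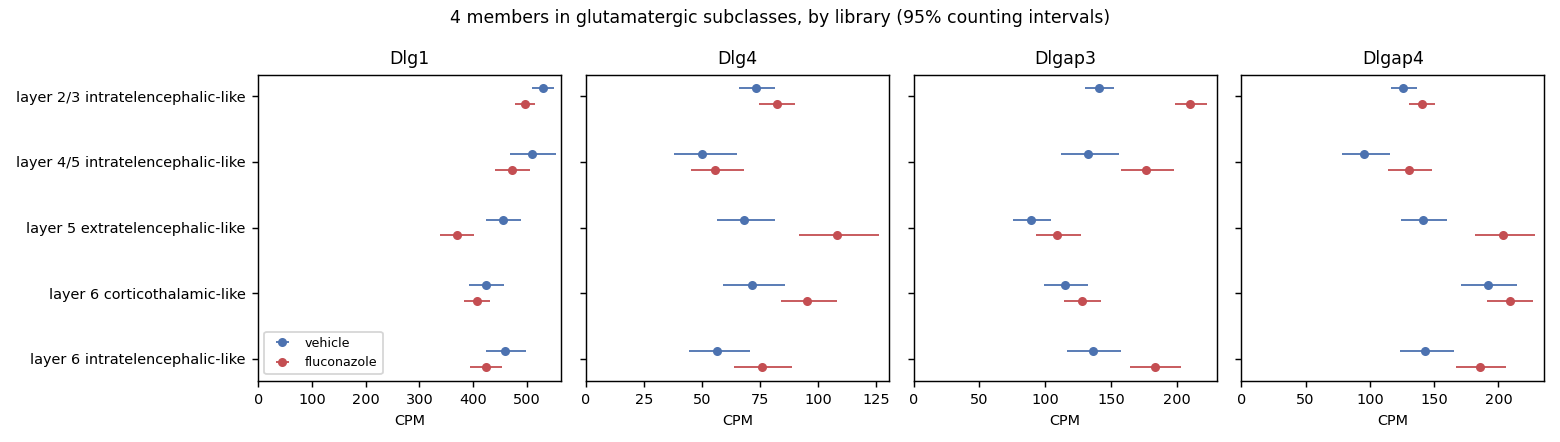
Level (CPM) of Dlg1, Dlg4, Dlgap3 and Dlgap4 in 5 glutamatergic subclasses, 1 point per library with its exact Poisson 95% interval. Dlgap3 separates most between libraries in layer 2/3 intratelencephalic neurons (141 and 209.9 CPM) and Dlg4 in layer 5 extratelencephalic neurons (68.1 and 108 CPM).

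GABAergic interneurons, most of which lack dendritic spines, gave other values, although the difference from glutamatergic neurons was not tested. Dlgap3 was level at 87.1 (77.4 to 97.7) and 89.0 (78.9 to 100.1) CPM, a log2 ratio of 0.03 (-0.21 to 0.27). Dlg4 stood at 54.1 and 45.9 CPM (-0.24, -0.56 to 0.09), with the opposite sign to glutamatergic neurons and an interval that includes 0. That sign differed between depth bins, on few UMIs. Below 5000 UMIs the Dlg4 ratio was -0.86 (-1.97 to 0.14), and from 5000 to 10000 it was -0.67 (-1.23 to -0.11). It was 0.17 (-0.44 to 0.80) from 10000 to 20000 UMIs and 0.30 (-0.48 to 1.09) in deeper barcodes. All but the second of these intervals include 0. Dlg1 was lower, at 220.2 and 183 CPM (-0.27, -0.43 to -0.11), but thinned to 1500 UMIs its ratio was 0.03. In the same bins from shallow to deep the Dlg1 ratio was -0.29, -0.09, -0.42 and -0.39. Dlgap1 had a ratio of 0.07 (0.03 to 0.11), but 0.0017 (-0.08 to 0.09) when thinned, 0.0039 with free RNA subtracted and -0.03 in barcodes of 5000 to 10000 UMIs. The only member called was Dlg3, higher on 106 and 128 UMIs (0.35, -0.03 to 0.73), where 7.49% of 8103 genes were called higher. Microglial markers summed to 1034 and 584 CPM in these barcodes, a wider gap than in glutamatergic neurons, and its part was not tested.

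Striatal spiny neurons, the class in which Dlgap3 was highest, again had more Dlgap3 in the fluconazole library: 165 (149 to 183) and 243 (221 to 266) CPM, a log2 ratio of 0.56 (0.35 to 0.76). The ratio was 0.62, 0.58, 0.68 and 0.26 in the 4 depth bins from shallow to deep, and in the deepest bin, of 8 and 13 barcodes, the interval included 0 (-0.28 to 0.81). Thinned to 1500 UMIs it was 0.37 (-0.13 to 0.87). Dlgap1 went the other way, with 968 (928 to 1010.3) and 734 (696 to 774) CPM, a ratio of -0.40 (-0.50 to -0.30). One barcode gave 11.0% of the vehicle and 1 gave 15.3% of the fluconazole Dlgap1 UMIs, so this interval is too narrow. Thinned, the ratio was -0.60 (-0.88 to -0.33). In the 4 depth bins from shallow to deep it was -0.41, -0.61, -1.21 and -0.11, and in the deepest the interval included 0 (-0.28 to 0.05). Dlgap4 (0.24, 0.00 to 0.47), Dlg4 (0.16, -0.14 to 0.46) and Dlg2 (-0.10, -0.14 to -0.07) differed less. Thus 1 of 8 members was called higher and 1 lower, where 10.9% and 15.6% of 5934 genes were. In the same barcodes 10 of 10 microglial markers were lower in the fluconazole library (summed 1081 and 733 CPM), as were 7 of 8 neuroblast markers (206 and 109 CPM) and 1 of 9 oligodendrocyte markers, whose sum was higher (339.7 and 475 CPM). Of the ribosomal protein genes tested, 72 of 75 were lower, and 7 of 7 nuclear-retained RNAs were higher. The free RNA estimate was 16.95% and 12.6% of UMIs, and with that amount subtracted the ratios were 0.51 for Dlgap3 and -0.46 for Dlgap1. The part of the other measures in these ratios was not tested.

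Outside mature neurons most calls were of lower Dlg2, Dlgap1 and Dlgap2. Dlg2 was lower in the fluconazole library in oligodendrocyte precursors (2957 and 2136 CPM; -0.47, -0.56 to -0.38), astrocytes (373 and 268 CPM; -0.48, -0.63 to -0.32), mural cells (115 and 80.2 CPM; -0.52, -0.85 to -0.19) and microglia (94.6 and 69.8 CPM; -0.44, -0.55 to -0.32). Dlgap1 was lower in microglia (45.1 and 35.1 CPM; -0.36, -0.53 to -0.19), mural cells (61.0 and 36.9 CPM; -0.73, -1.20 to -0.25) and oligodendrocytes (40.4 and 26.2 CPM; -0.62, -0.97 to -0.28). In the same microglia Dlg1 (126 and 126 CPM) and Dlg4 (11.5 and 11.4 CPM) were level. Of the members tested, 2 of 7 in microglia, 2 of 7 in astrocytes, 2 of 5 in oligodendrocyte precursors, 2 of 4 in mural cells and 1 of 5 in oligodendrocytes were called lower and none higher. The share of all genes called lower was 7.1%, 11%, 14.9%, 8.93% and 5.95% in these classes. Dlgap2 in oligodendrocyte precursors had the largest ratio among members with at least 100 UMIs, 429 and 207 CPM (-1.05, -1.32 to -0.79), and there single barcodes gave 13.8% and 15.7% of its UMIs. In astrocytes Dlgap2 was lower at 46.2 and 33.9 CPM (-0.45, -0.90 to -0.0018). In neuroblasts 1 of 8 members was called lower, against 10.4% of all genes: Dlgap3, with 111 and 41 UMIs (35.0 and 25.1 CPM; -0.48, -1.03 to 0.05). In lymphocytes the 1 member tested, Dlg1, was called higher, against 18.1% of all genes, with 87 and 59 UMIs (156 and 211 CPM; 0.44, -0.06 to 0.93). Both intervals include 0. In border macrophages 2 of 3 tested members were higher, in endothelial cells 0 of 5 and in fibroblasts 3 of 5. Of all tested genes, 51.4%, 47.9% and 55.4% were higher in these classes. No member reached the size of a call in them, and the share of all genes that did is not given here. Dlgap2 in microglia was lower without reaching a call (27.8 and 22.3 CPM, a ratio of -0.32, -0.53 to -0.11). The microglial genes C1qa, C1qb and C1qc were also lower in the fluconazole library in those astrocytes (669 and 465 CPM summed), mural cells (402 and 162 CPM) and precursors (820 and 633 CPM). In microglia these genes cannot gauge free RNA, since microglia express them. What free RNA contributes to the members' ratios in any of these classes, microglia and oligodendrocytes included, was not tested.

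The partners of these scaffolds were described from lists chosen with the study in view. A first list held partners of the guanylate kinase domain or Dlgap and related scaffolds, among them the Homer genes, whose products bind Shank. In glutamatergic neurons 17 of its 18 genes were tested, and 9 were higher and 8 lower in the fluconazole library. The median ratio was 0.00, against -0.03 over all genes. Homer1, which encodes the scaffold that links Shank to metabotropic glutamate receptors and has an activity-induced short form, had the largest ratio of them: 237 and 437 CPM (0.88, 0.83 to 0.94). Shank1 stood at 90.8 and 113 CPM (0.31, 0.22 to 0.41) and Shank3 at 70.8 and 79.0 CPM (0.16, 0.05 to 0.26). The dynein light chain genes Dynll1 (51.6 and 38.5 CPM; -0.42, -0.56 to -0.28) and Dynll2 (18.0 and 13.9 CPM; -0.38, -0.61 to -0.14), whose products bind Dlgap1, were lower.

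Of membrane proteins and enzymes that bind Dlg PDZ domains, 22 of 24 listed genes were tested, and their median ratio was 0.07, from 13 higher and 9 lower genes. The AMPA receptor auxiliary subunit genes Cacng2 (64.3 and 92.6 CPM; 0.53, 0.42 to 0.63) and Cacng8 (44.7 and 54.2 CPM; 0.28, 0.14 to 0.41) and the synaptic adhesion gene Lrrtm2 (8.66 and 12.9 CPM; 0.57, 0.28 to 0.87) were higher. The potassium channel gene Kcnj2 (6.84 and 4.19 CPM; -0.71, -1.12 to -0.30) was lower. Of other membrane-associated guanylate kinases and relatives, the median ratio over 13 tested was -0.03, from 5 higher and 8 lower. Mpp2 (28.4 and 42.7 CPM; 0.59, 0.43 to 0.75) had the largest ratio, followed by Mpp3 (0.30), Mpp7 (-0.29) and Dlg5 (0.27). Enzymes that add or remove palmitate, a lipid that anchors Dlg4 at the membrane, divided evenly, 7 higher and 7 lower of 14, with a median of -0.00. The largest ratios among them were 0.32 for Zdhhc5, 0.26 for Zdhhc14, -0.20 for Zdhhc15 and 0.14 for Ppt1. Called in either direction were 3 of 17 genes of the guanylate kinase or Dlgap list, Homer1 among them, and 3 of 22 PDZ partners. The same held for 1 of 13 relatives and 0 of 14 palmitate enzymes, against the 18% of all genes given above.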

How the data were processed

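The authors deposited raw UMI counts in whole numbers, per the file headers, for barcodes already selected. Cell Ranger 8.0.1 is in the matrix header, whereas the submitters' processing notes list Cell Ranger 9.0.0, mm10, R 4.0.3 and Seurat 4.0.0. The annotation used for counting is not given in the sources used here, and 32012 of 33696 gene identifiers are in GENCODE M21. In that annotation, counted non-coding genes overlap Dlg2 (2), Dlgap1 (2), Dlgap2 (1) and Dlgap4 (2). Only 1 of them, at Dlg2, lies on the same strand as the member, where reads of that strand could be split between the genes. Members and gene lists were chosen with earlier results of these data known.

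Kept barcodes had 500 or more genes and no more than 5% mitochondrial UMIs, and Scrublet doublets (617 of 14924 vehicle and 517 of 12637 fluconazole barcodes) were left out. Clustering took both libraries jointly, with no correction between them (scanpy 1.11.5, leidenalg 0.10.2, 2000 variable genes without the members, 30 components, 15 neighbours, resolution 1.0), which gave 36 clusters. A cluster was named when at least 3 markers of 1 class were raised at least 2-fold over the other barcodes and found in at least 10% of its own. It stayed unnamed if an unrelated class scored above 0.5 of the best, if more of its leading genes were markers of another class, or if depth was low with no marker leading. These naming rules were written with the clusters at hand, and 6 clusters stayed unnamed. Markers made the clusters and are no result.

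UMIs were summed per class and library and scaled to CPM. Intervals are exact Poisson (CPM), Clopper-Pearson (shares) and conditional binomial (ratios). They treat UMIs as independent and leave out differences between barcodes, mice and libraries. The ratio script was tested on simulated data. A difference was called at 25% above or 20% below the vehicle level, with at least 100 UMIs over both libraries. All 8 members are named. Other named genes are the 3 most correlated with each member (at least 1000 UMIs) and, from each list, up to 4 with the largest ratio in glutamatergic neurons, plus Shank3. Classes of a library are not independent. Alternatives covered scaling, thinning to 1500 or 3000 UMIs, doublets, a filter of at least 1000 genes and at most 1% mitochondrial UMIs, cluster weights, resolution 2.0 and free RNA. Mixed subclusters and depth bins were chosen after seeing the data. RefSeq promoter windows were found for 7 of 8 members (not Dlgap2).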

Additional observations from a re-analysis of the deposited data

How the results depend on the processing

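The cause of each change below was not tested. Of the 11 alternative settings, none turned the sign of the glutamatergic ratios of Dlg1, Dlg4, Dlgap1, Dlgap3 or Dlgap4. Dlgap3 ranged from 0.26 to 0.51, Dlg4 from 0.24 to 0.52 and Dlgap4 from 0.26 to 0.43. The sign turned in 1 setting for Dlg2, 1 for Dlgap2 and 4 for Dlg3. Members higher in the fluconazole library in glutamatergic neurons numbered 6 as reported, 5 after thinning and 4 with an unweighted mean over clusters or in barcodes of 5000 to 10000 UMIs. The median over the 8 members was -0.0089 with an unweighted mean over clusters and 0.00076 in barcodes of 5000 to 10000 UMIs, so it is near 0 on either side. In striatal spiny neurons Dlgap3 ranged from 0.37 to 0.68 and Dlgap1 from -1.21 to -0.37. These settings hold the 2 middle depth bins only: in barcodes of 20000 UMIs or more the ratios were 0.26 for Dlgap3 and -0.11 for Dlgap1 in striatal spiny neurons, and 0.58 for Dlgap3 and 0.0083 for Dlgap1, with its sign turned, in glutamatergic neurons. Dlg3 in GABAergic interneurons was -0.020 in barcodes of 10000 to 20000 UMIs, against 0.35 as reported. With the stricter filter, which kept 4796 and 3779 barcodes, 6 and not 8 members were highest in a neuronal class, with Dlg1 highest in fibroblasts and Dlg3 in mural cells. Leaving out a library would leave no comparison. No paired analysis was possible because each treatment has 1 library. Depth limits Dlg3 and Dlg4 most: Dlg3 gave 1265 and 1332 UMIs in all.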
